A study of Saccharomyces cerevisiae with 4 samples.

Results

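The genes described here encode the small-subunit processome and 40S assembly factors of budding yeast, the proteins that make the precursor of the 18S rRNA into a small ribosomal subunit. They were taken as the probes whose symbol on the array platform was 1 of 44 listed names. The list was chosen with earlier results of these data known. All 44 genes were on the array, each with 1 probe, out of 5315 genes with a symbol and 6388 gene probes in all. The genes fell into the UTP A complex (7 genes), the UTP B complex (6), the U3 snoRNP (4), the Mpp10 complex with SAS10 (4), other processome factors (19) and late 40S factors (4).

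Saccharomyces cerevisiae BY4742, an alpha haploid used widely in the laboratory, was grown in phosphate-free synthetic complete medium with glucose to which either 75 uM phosphate (low phosphate) or 10 mM phosphate (standard phosphate) was added. The cells of both groups were wild type and carried the plasmid YCpLac111. There were 2 arrays for low phosphate and 2 for standard phosphate, with letters a and b, and every array was hybridised with a common reference, RNA of a single wild-type culture with no plasmid named. The sample was in Cy3 and the reference in Cy5 on the a arrays, with the opposite labelling on the b arrays, so that culture and dye cannot be told apart within a group. Values are log2 of sample over reference after background correction and loess normalization, and a difference is the low phosphate mean minus the standard phosphate mean. In RNA of a whole culture, fewer cells that express a gene and less of its RNA per cell cannot be told apart.

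Ribosome assembly starts in the nucleolus, where RNA polymerase I makes a long precursor of the rRNAs. The UTP complexes and the U3 snoRNP, whose small nucleolar RNA pairs with the precursor, assemble on its leading end and fold and cut it into a pre-40S particle, which late factors accompany to the cytoplasm. Genes for these factors form a large part of the yeast ribosome biogenesis regulon, which is known to be transcribed in step with growth.

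The arrays differed in spread. Over all probes the ratios had an SD of 0.27 and 0.60 on low phosphate a and b and of 0.27 and 0.20 on standard phosphate a and b, so that low phosphate b stood apart. The medians and counts of the members and the medians of the complexes are given with and without it. The median sample signal was 310 and 322 on the low phosphate arrays and 383 and 254 on the standard phosphate arrays, over a local background of 41 to 49. Of the members, 43 were above background on all 4 arrays (over 2 times the local background at both spots) and none was saturated. Both spots of a member differed by a median of 0.019 to 0.038 on the log2 scale, depending on the array. All 4 markers of mating type alpha were above background on every array, as the strain's label has it. Of the 6 mating type a markers none was above background on all 4 arrays. STE2 and STE6 were above it on 3 arrays, BAR1 on 2, MFA1 and AGA2 on 1 and MFA2 on none.

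Mean levels of the processome transcripts were lower in low phosphate, although no single gene passed the adjusted test. All 44 genes had a lower mean there, where 50% of all probes did, and the median difference was -0.86, or 1.82-fold lower, with a range of -1.27 to -0.39. The median over all probes was 0.00010. The size of the difference was unlike in the 2 low phosphate arrays. The median member ratio was -0.15 on low phosphate a and -1.15 on low phosphate b, against 0.23 on standard phosphate a and 0.14 on standard phosphate b. For 39 of the 44 genes both low phosphate values lay below both standard phosphate values, where 26.8% of all probes did so. The exceptions were DIP2, UTP21, NOP56, NOP58 and SAS10.

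With 2 arrays a group, the error of each difference was large beside its size. No member passed an adjusted p of 0.05 over all probes (limma, Benjamini-Hochberg), with adjusted p from 0.420 to 0.561, where 0.0157% of all probes (1 probe) passed. At an unadjusted p under 0.05, 11 members were lower, where 5.13% of all probes were, and none was higher. The 11 were IMP3, IMP4, UTP23, UTP30, RCL1, FCF1, FCF2, ESF2, RRP5, ENP1 and DIM1. A mean lower by over 1.7-fold, the fold used by the study, was seen in 29 members, where 3.60% of all probes were that much lower. The fold and the unadjusted p together were met by 8 members, where 1.47% of all probes met both. The standard error of a member's difference was 0.23 to 0.59, with a median of 0.38.

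**Figure D1:**
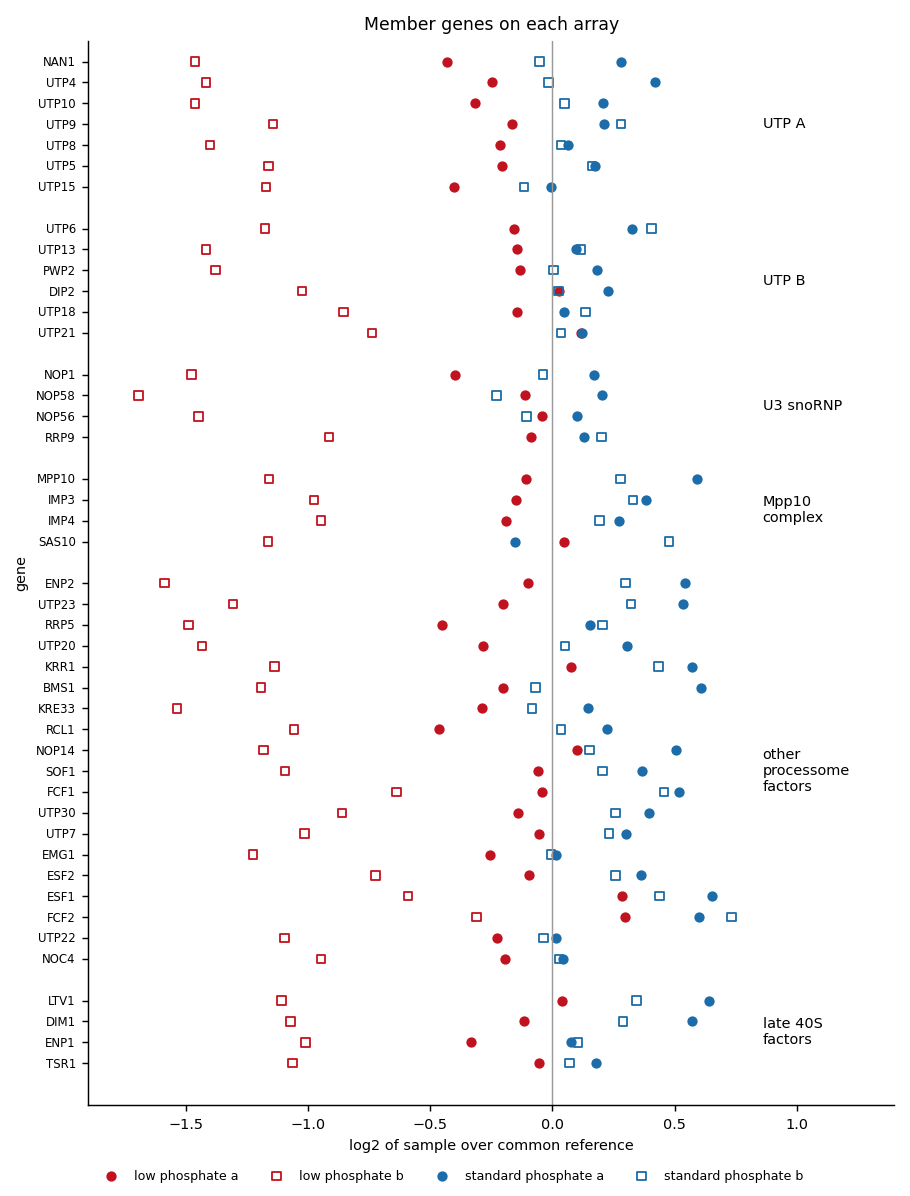
Log2 of sample over common reference (horizontal axis) for each of the 44 genes on the 4 arrays, grouped by complex and ordered by difference. Red marks low phosphate and blue standard phosphate, with filled circles for the a arrays and open squares for the b arrays. The open red squares of low phosphate b lie at -0.31 or below, left of the other points of each gene, and the filled red circles of low phosphate a lie closer to the blue points.

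The UTP A complex binds the start of the pre-rRNA before the other parts of the processome. All 7 of its genes were lower on average in low phosphate, at a median difference of -0.90, and both low phosphate arrays lay below both standard phosphate arrays for each of them. NAN1 (YPL126W) encodes a WD-repeat subunit also known as Utp17. Its ratios were -0.43 on low phosphate a and -1.46 on low phosphate b, against 0.28 on standard phosphate a and -0.053 on standard phosphate b, a difference of -1.06 ± 0.39 (SE), or 2.09-fold lower. For UTP4 (YDR324C), another WD-repeat subunit, the values were -0.25 on low phosphate a and -1.42 on low phosphate b, against 0.42 on standard phosphate a and -0.016 on standard phosphate b, which gave -1.04 ± 0.45. UTP10 (YJL109C), the largest subunit and built of HEAT repeats, had -0.32 on low phosphate a and -1.46 on low phosphate b, against 0.21 on standard phosphate a and 0.049 on standard phosphate b. Its difference was -1.02 ± 0.42. The differences of these 3 genes lay well within 1 standard error of each other.

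UTP9, UTP8 and UTP5, further subunits of the complex, followed with differences of -0.90, -0.86 and -0.85. UTP9 had -0.16 and -1.14 on the low phosphate arrays a and b, against 0.21 and 0.28 on the standard phosphate arrays. In UTP8 the ratios were -0.22 and -1.40 in low phosphate, against 0.063 and 0.035 in standard phosphate. Those of UTP5 were -0.21 and -1.16 in low phosphate, against 0.17 and 0.16 in standard phosphate. In all 3 the standard phosphate arrays lay close together and the low phosphate arrays did not. UTP15 (YMR093W) had the smallest difference of the complex, with -0.40 on low phosphate a and -1.17 on low phosphate b, against -0.0079 on standard phosphate a and -0.12 on standard phosphate b. The difference of -0.73 ± 0.29 was smaller than that of NAN1 by less than the standard error of NAN1, so the order inside the complex is not resolved by these arrays. UTP15 was also the only UTP A gene below the reference on both standard phosphate arrays, although close to it on standard phosphate a. No UTP A gene had an unadjusted p under 0.05.

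The UTP B complex joins after UTP A and its subunits are mostly WD-repeat proteins. All 6 of its genes averaged lower in low phosphate, at a median difference of -0.74, and UTP B had the median nearest to 0 and the widest spread of the complexes, with an SD of 0.24 between genes, against 0.12 in UTP A. UTP6 (YDR449C), which has HAT repeats in place of WD repeats, had -0.16 on low phosphate a and -1.18 on low phosphate b, against 0.33 on standard phosphate a and 0.40 on standard phosphate b. The difference was -1.03 ± 0.37, or 2.05-fold lower. UTP13 (YLR222C) was at -0.14 on low phosphate a and -1.42 on low phosphate b, against 0.10 on standard phosphate a and 0.12 on standard phosphate b, which gave -0.89 ± 0.46. PWP2 (YCR057C, or Utp1) read -0.13 on low phosphate a and -1.38 on low phosphate b, against 0.18 on standard phosphate a and 0.0036 on standard phosphate b, a difference of -0.85 ± 0.45. For these 3 genes low phosphate a was modestly below the standard phosphate arrays and low phosphate b far below them.

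In UTP18, whose protein recruits the exosome helicase Mtr4, the groups also lay apart, with a difference of -0.59 ± 0.27. DIP2 (YLR129W, or Utp12) overlapped between groups, with 0.026 on low phosphate a and -1.03 on low phosphate b, against 0.23 on standard phosphate a and 0.024 on standard phosphate b. UTP21 (YLR409C) had the smallest difference of all 44 genes, -0.39 ± 0.32. Its values were 0.12 on low phosphate a and -0.74 on low phosphate b, against 0.12 on standard phosphate a and 0.035 on standard phosphate b. Only low phosphate b was low for UTP21, and without that array its difference was 0.037, in the opposite direction.

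The U3 snoRNP holds the box C/D core proteins Nop1, Nop56 and Nop58, which also serve the other box C/D snoRNPs, and the U3-specific Rrp9. All 4 genes averaged lower in low phosphate, at a median difference of -0.82. NOP1 (YDL014W), the fibrillarin methyltransferase, had -0.40 on low phosphate a and -1.48 on low phosphate b, against 0.17 on standard phosphate a and -0.038 on standard phosphate b. It differed by -1.0 ± 0.40, or 2.0-fold, and its groups did not overlap. RRP9 (YPR137W), a WD-repeat protein, had -0.089 on low phosphate a and -0.91 on low phosphate b, against 0.13 on standard phosphate a and 0.20 on standard phosphate b, and differed by -0.67 ± 0.31. These were the 2 genes of the U3 snoRNP whose groups lay apart.

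NOP56 (YLR197W) and NOP58 (YOR310C), which encode related scaffold proteins of the core, overlapped between groups. The NOP56 ratios were -0.044 on low phosphate a and -1.45 on low phosphate b, against 0.10 on standard phosphate a and -0.11 on standard phosphate b, a difference of -0.74 ± 0.51. Those of NOP58 were -0.11 on low phosphate a and -1.70 on low phosphate b, against 0.20 on standard phosphate a and -0.23 on standard phosphate b, a difference of -0.89 ± 0.59. NOP58 had the lowest value of any member on low phosphate b and the largest standard error of the 44 genes. In both genes low phosphate a lay between the standard phosphate arrays, and only low phosphate b lay below both of them. Without low phosphate b the difference was -0.042 for NOP56 and -0.098 for NOP58, and the median of the U3 snoRNP was -0.18 in place of -0.82.

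The Mpp10 complex joins the U3 RNA to the pre-rRNA, with Imp3 and Imp4 assisting the pairing of both RNAs. All 4 genes of this group had a lower mean in low phosphate and the median difference was -0.86. MPP10 (YJR002W) was at -0.11 on low phosphate a and -1.16 on low phosphate b, against 0.59 on standard phosphate a and 0.28 on standard phosphate b. The difference was -1.07 ± 0.40, or 2.10-fold lower. IMP3 (YHR148W) had -0.15 on low phosphate a and -0.98 on low phosphate b, against 0.38 on standard phosphate a and 0.33 on standard phosphate b, which gave -0.92 ± 0.31 with an unadjusted p of 0.0397 (limma). IMP4 (YNL075W) read -0.19 on low phosphate a and -0.95 on low phosphate b, against 0.27 on standard phosphate a and 0.19 on standard phosphate b, and differed by -0.80 ± 0.28, with an unadjusted p of 0.0475 (limma). The groups lay apart for MPP10, IMP3 and IMP4.

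SAS10 (YDL153C, or Utp3), a processome protein that shares a domain with other rRNA-processing factors, needs a separate reading. Its ratios were 0.047 on low phosphate a and -1.17 on low phosphate b, against -0.15 on standard phosphate a and 0.48 on standard phosphate b. On standard phosphate a, however, its spots were at background in both channels, with a sample signal of 39.7 over a background of 39.5 and a reference signal of 54.6 over 54. On the other 3 arrays its sample signal was 428 to 931. The standard phosphate a ratio therefore holds no measured level. Without that array the difference was -1.04 in place of -0.72. The median difference of the members was -0.86 with or without SAS10.

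Of the other processome factors, all 19 averaged lower in low phosphate and their groups lay apart, and the median difference was -0.86. ENP2 (YGR145W), a nucleolar WD-repeat protein, had the largest difference of all members. It was at -0.10 on low phosphate a and -1.59 on low phosphate b, against 0.54 on standard phosphate a and 0.30 on standard phosphate b, a difference of -1.27 ± 0.54, or 2.40-fold lower, and ranked 26 from the lowest of the 6388 probes. UTP23 (YOR004W), a PIN-domain protein linked to the snR30 snoRNA, had -0.20 on low phosphate a and -1.31 on low phosphate b, against 0.53 on standard phosphate a and 0.32 on standard phosphate b, and differed by -1.19 ± 0.41. RRP5 (YMR229C), an RNA-binding protein required for both subunits, read -0.45 on low phosphate a and -1.49 on low phosphate b, against 0.15 on standard phosphate a and 0.20 on standard phosphate b, with a difference of -1.15 ± 0.38. These 3 genes were at least 2.22-fold lower, and the unadjusted p (limma) was 0.0796 for ENP2, 0.0441 for UTP23 and 0.0386 for RRP5.

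The genes with the smallest errors were not those with the largest differences. FCF1 (YDR339C, or Utp24), the PIN-domain nuclease of the early cleavages on either side of the 18S rRNA, had the smallest standard error of all members. Its ratios were -0.042 on low phosphate a and -0.64 on low phosphate b, against 0.52 on standard phosphate a and 0.46 on standard phosphate b, and it differed by -0.83 ± 0.23 with an unadjusted p of 0.0224 (limma). RCL1 (YOL010W), a cyclase-like protein needed for the early cleavages, had -0.46 on low phosphate a and -1.06 on low phosphate b, against 0.22 on standard phosphate a and 0.034 on standard phosphate b. Its difference of -0.89 ± 0.24 had the smallest unadjusted p of the members, 0.020 (limma). On low phosphate a RCL1 was the lowest of the 44 genes. BMS1, the GTPase that binds Rcl1, had -0.20 on low phosphate a and -1.19 on low phosphate b, against 0.61 on standard phosphate a and -0.069 on standard phosphate b, and its standard phosphate arrays lay far apart.

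UTP30, whose protein resembles a ribosomal protein, had -0.14 on low phosphate a and -0.86 on low phosphate b, against 0.40 on standard phosphate a and 0.26 on standard phosphate b, a difference of -0.83 ± 0.27. FCF2 was above the reference on low phosphate a, with 0.30 on low phosphate a and -0.31 on low phosphate b, against 0.60 on standard phosphate a and 0.73 on standard phosphate b, and still differed by -0.67 ± 0.24. ESF2, a cofactor of the RNA helicase Dbp8, had -0.10 on low phosphate a and -0.72 on low phosphate b, against 0.36 on standard phosphate a and 0.26 on standard phosphate b, and differed by -0.72 ± 0.24. All 3 had an unadjusted p under 0.05 and only UTP30 was also past 1.7-fold. NOC4 (YPR144C), a partner of Nop14, had the smallest difference of this group at -0.61 ± 0.28. Its ratios were -0.19 on low phosphate a and -0.95 on low phosphate b, against 0.045 on standard phosphate a and 0.027 on standard phosphate b. NOP14 itself had 0.10 and -1.18 in low phosphate, against 0.50 and 0.15 in standard phosphate, and differed by -0.87. EMG1, a pseudouridine methyltransferase that works with Nop14, differed by -0.74.

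The remaining factors lay between these. UTP20, a large HEAT-repeat protein, had -0.28 and -1.44 on low phosphate a and b, against 0.30 and 0.051 on standard phosphate a and b, a difference of -1.04. KRR1, a KH-domain protein, had 0.077 and -1.14 in low phosphate, against 0.57 and 0.43 in standard phosphate, and differed by -1.03. Both were 2.05-fold lower, although KRR1 was above the reference on low phosphate a. The ratios of KRE33, the rRNA cytidine acetyltransferase, were -0.29 and -1.54 in low phosphate, against 0.14 and -0.083 in standard phosphate, a difference of -0.94. SOF1, a WD-repeat protein, was at -0.059 and -1.10 in low phosphate, against 0.37 and 0.20 in standard phosphate, and differed by -0.86. UTP7, also a WD-repeat protein, had -0.055 and -1.01 in low phosphate, against 0.30 and 0.23 in standard phosphate, and differed by -0.80. In these 5 genes low phosphate b was far below the other 3 arrays. ESF1 differed by -0.70 and UTP22, a partner of Rrp7, by -0.65.

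**Figure D2:**
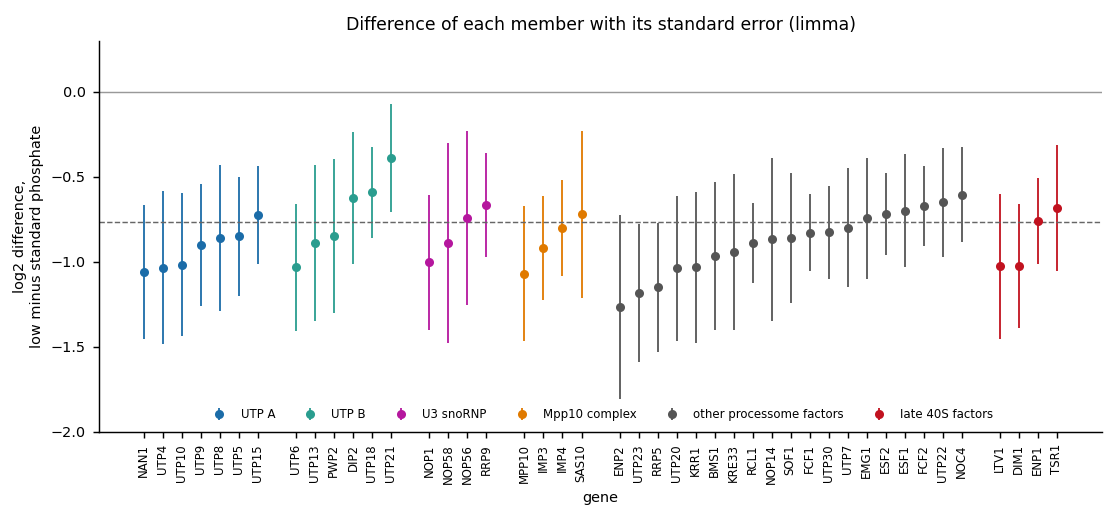
Log2 difference of low minus standard phosphate for each gene (vertical axis) with its standard error from limma, by complex and ordered within it, from 2 arrays a group. The solid line is no difference and the dashed line a level 1.7-fold lower. Every point lies below 0 and most error bars overlap within and between complexes, from ENP2 at -1.27 to UTP21 at -0.39.

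Late 40S factors leave the nucleus with the pre-40S particle or act on it near the end of its maturation. All 4 genes averaged lower in low phosphate, their groups lay apart, and the median difference was -0.89. LTV1 (YKL143W), an export and maturation factor, had 0.038 on low phosphate a and -1.11 on low phosphate b, against 0.64 on standard phosphate a and 0.34 on standard phosphate b, and differed by -1.03 ± 0.43. DIM1 (YPL266W), the 18S rRNA dimethyltransferase, read -0.12 on low phosphate a and -1.07 on low phosphate b, against 0.57 on standard phosphate a and 0.29 on standard phosphate b. It differed by -1.03 ± 0.36 with an unadjusted p of 0.0478 (limma). ENP1 (YBR247C), which binds Ltv1 on the particle, was at -0.33 on low phosphate a and -1.01 on low phosphate b, against 0.075 on standard phosphate a and 0.10 on standard phosphate b, a difference of -0.76 ± 0.26. Its unadjusted p was 0.0410 (limma), and it was 1.69-fold lower, just short of 1.7-fold. TSR1 (YDL060W), a GTPase-like protein without GTPase activity, had -0.055 on low phosphate a and -1.06 on low phosphate b, against 0.18 on standard phosphate a and 0.069 on standard phosphate b, and differed by -0.68 ± 0.37. On low phosphate b the 4 genes lay close together, with an SD of 0.040 between them.

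By complex, the median difference was -0.90 in UTP A, -0.74 in UTP B, -0.82 in the U3 snoRNP, -0.86 in the Mpp10 group, -0.86 in the other factors and -0.89 in the late factors. The difference between the complexes with the lowest and the highest median was smaller than the median standard error of a single gene, 0.38, and no test was made between complexes. Without low phosphate b the medians were -0.41 in UTP A, -0.23 in UTP B, -0.18 in the U3 snoRNP, -0.46 in the Mpp10 group, -0.41 in the other factors and -0.44 in the late factors. Each complex was thus lower without that array too, by less.

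The comparison was then made within each dye orientation. On the a arrays, low minus standard phosphate had a median of -0.42 over the members, or 1.33-fold lower, and ran from -0.81 to 0.20. Of the members 43 were lower, where 49.7% of all probes were, and the exception was SAS10, which was at background on standard phosphate a. Only BMS1 was over 1.7-fold lower (-0.81), where 1.35% of all probes were. On the b arrays the median was -1.33, or 2.51-fold lower, with a range of -1.89 to -0.77. All 44 members were lower, where 50.3% of all probes were, and all 44 were over 1.7-fold lower, where 7.20% of all probes were. The difference was lower on the b arrays than on the a arrays for every member, where it was so for 3213 of all 6388 probes. Both orientations were lower for 43 members, where 35.4% of all probes were lower in both.

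By complex, the a arrays gave medians of -0.40 in UTP A, -0.22 in UTP B, -0.27 in the U3 snoRNP, -0.50 in the Mpp10 group, -0.46 in the other factors and -0.51 in the late factors. The b arrays gave -1.41, -1.22, -1.39, -1.37, -1.22 and -1.25 in the same order of complexes. UTP A and the U3 snoRNP thus ranked lowest on the b arrays, and the late factors and the Mpp10 group on the a arrays. Across the 44 genes the differences on the a and b arrays were weakly related (r = 0.30, Spearman's rho = 0.37), as a description over genes that share the same arrays and the same reference. The 44 genes include SAS10, which was at background on standard phosphate a, and r without it was not computed. Over all 6388 probes, whose differences spanned a wider range, r was 0.69.

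**Figure D3:**
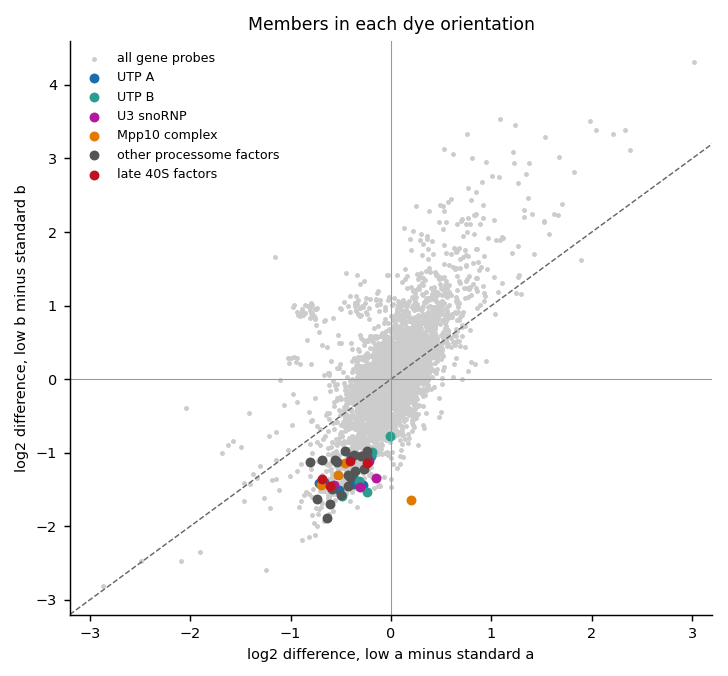
Log2 difference of low minus standard phosphate on the b arrays (vertical axis) against that on the a arrays (horizontal axis), for all gene probes in grey and the members coloured by complex. The dashed line marks equal differences. All 44 members lie below the dashed line, between -1.89 and -0.77 on the b arrays and between -0.81 and 0.20 on the a arrays, and the rightmost is SAS10.

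Because the arrays had unequal spread, the members were also placed by rank among all probes on each array. The median member stood at the 17.9 percentile on low phosphate a and the 2.48 percentile on low phosphate b, against the 85.1 percentile on standard phosphate a and the 81.7 percentile on standard phosphate b. On low phosphate b, 43 of the 44 genes were in the lowest 10% of probes, and on low phosphate a 13 were. Only FCF2 was outside it on low phosphate b. For the difference of the group means the median percentile was 2.65 and the highest, that of UTP21, was 9.90. Without low phosphate b the median difference of the members was -0.39, and without low phosphate a it was -1.39, with 43 and 44 members lower. Without low phosphate b no member was over 1.7-fold lower, and 26 were lower at an unadjusted p under 0.05 (limma), where 6.57% of all probes were. Leaving out low phosphate a brought all 44 members past an adjusted p of 0.05 (limma), where 31.8% of all probes then passed. In that fit the lone low phosphate array is assumed to vary as the standard phosphate arrays do.

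Set against the common reference, most members lay below it in low phosphate and above it in standard phosphate. In low phosphate 36 members were below the reference on both arrays, where 35.4% of all probes were. All 44 were below it on low phosphate b, where 3229 of all 6388 probes were. In standard phosphate 33 members were above the reference on both arrays, where 34.6% of all probes were. At an unadjusted p under 0.05 (limma), 13 members were lower than the reference in low phosphate, where 11.4% of all probes were, and 2 were higher than it in standard phosphate, where 6.84% were. No member passed an adjusted p of 0.05 against the reference (limma), where 0.297% of all probes passed in low phosphate and 0.0783% in standard phosphate. The spread of the reference itself, which came from 1 RNA pool, is not part of these tests.

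A further 32 genes of 40S assembly were listed beside the members, and 31 were measured. All 31 averaged lower in low phosphate and had groups that lay apart, a median difference of -0.84 and a range of -1.54 to -0.24. No gene of this list passed an adjusted p of 0.05 (limma), 7 were lower at an unadjusted p under 0.05, and 19 were over 1.7-fold lower. NSR1, the yeast nucleolin homologue, had a difference of -1.54, lower than that of any member. It had -0.32 on low phosphate a and -1.84 on low phosphate b, against 0.57 on standard phosphate a and 0.34 on standard phosphate b. At the other end stood FAP7, an ATPase of late 40S maturation, with -0.028 on low phosphate a and -0.19 on low phosphate b, against 0.14 on standard phosphate a and 0.12 on standard phosphate b, and NOB1, the endonuclease that makes the mature end of the 18S rRNA, with -0.0074 on low phosphate a and -0.47 on low phosphate b, against 0.15 on standard phosphate a and 0.066 on standard phosphate b. RRP12 and RIO2, an export factor and a kinase of the pre-40S particle, differed by -0.98 and -0.60.

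Factors of the 60S subunit showed a like shift, with 63 of 64 measured genes lower and a median difference of -0.93. Ribosomal protein genes were lower by less. Of the genes for 40S ribosomal proteins 52 of 53 had a lower mean, with a median difference of -0.30, and of those for 60S ribosomal proteins 66 of 67, with a median of -0.26. On the a arrays the median was -0.42 for the members, against -0.037 and 0.025 for these lists, and on the b arrays it was -1.33 for the members, against -0.55 and -0.54. No test of the difference between lists was made.

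Stress genes under Msn2 and Msn4 differed in the opposite direction on the same arrays. All 30 averaged higher in low phosphate, by a median of 1.74 on the log2 scale, where 3196 of all 6388 probes averaged higher. Both low phosphate values lay above both standard phosphate values for 26 of the 30, where 1693 of all probes did so. HSP12 was lower on the a arrays. It had 0.95 and 4.16 on low phosphate a and b, against 2.11 and 2.51 on standard phosphate a and b, a difference of 0.25 ± 1.15. The median ratio of the 30 genes was 0.88 on low phosphate a and 2.70 on low phosphate b, against -0.13 on standard phosphate a and 0.32 on standard phosphate b. Low phosphate b thus had the lower processome transcripts and the higher stress transcripts of the pair, and the part of this in the members' differences was not tested.

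**Figure D4:**
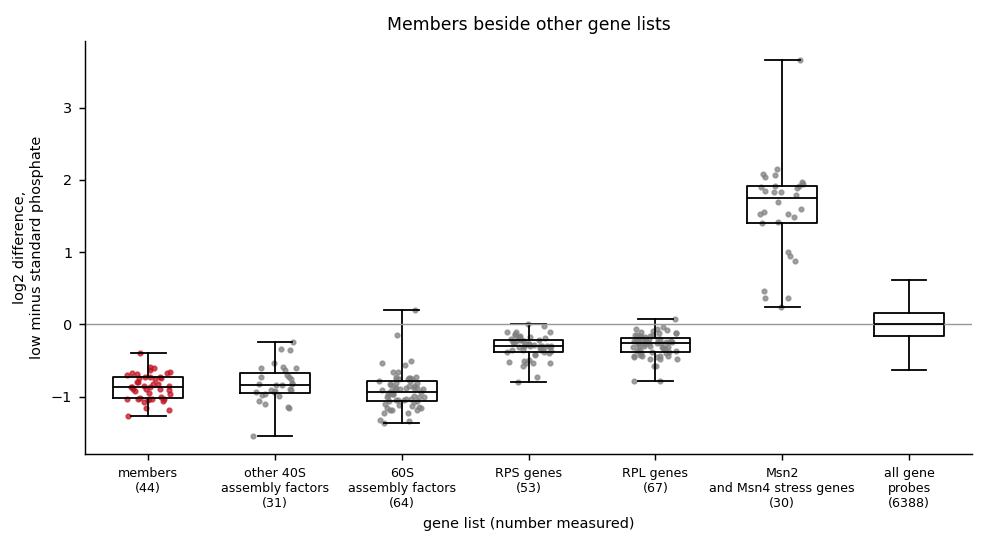
Log2 difference of low minus standard phosphate (vertical axis) for the 44 members, 5 other gene lists and all 6388 gene probes. Points are genes, boxes span the quartiles with the median as a line, and whiskers reach the extremes (for all probes, they leave out the outermost 5% on each side). The members and the other assembly factors have medians between -0.93 and -0.84, the ribosomal protein genes -0.30 and -0.26 and the stress genes 1.74.

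The members were not neighbours in the genome. In the RefSeq gene table the 44 genes lay on 13 chromosomes, and no member was next to another. Of the 88 genes directly beside a member 80 had a measured probe. Of the 44 members 44 were lower and 29 over 1.7-fold lower, against 48 and 5 of the 80 neighbours, whose median difference was -0.11. Among all 6388 probes 3192 were lower and 230 over 1.7-fold lower. Some neighbours were themselves listed as ribosome assembly factors or ribosomal proteins. Of the 72 measured neighbours on neither list, 40 were lower and 3 over 1.7-fold lower, with a median difference of -0.037. A neighbour transcribed from the same upstream region in the opposite direction was measured for 18 members, and the median difference of these 18 was -0.18, with none over 1.7-fold lower. SAS10 stands back to back with RPC53, which encodes a subunit of RNA polymerase III, at 0.038 and -0.67 on the low phosphate arrays and 0.44 and 0.26 on the standard phosphate arrays.

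UTP21, the member with the smallest difference, shares its upstream region with VIP1, which encodes an inositol polyphosphate kinase. VIP1 was at 0.95 on low phosphate a and 0.87 on low phosphate b, against 0.063 on standard phosphate a and -0.13 on standard phosphate b, a difference of 0.94, and its groups did not overlap. It was the neighbour with the highest difference of the 80 measured. UTP15 and NAN1 also had a higher neighbour upstream, AIP1 at 0.48 and HHO1 at 0.27. So did UTP18 and UTP9, with YJL068C at 0.73 and NVJ1 at 0.27, each transcribed in the same direction as the member. All of these members were lower in low phosphate. Of the measured upstream neighbours, 13 of 18 transcribed in the opposite direction and 12 of 23 in the same direction averaged lower. The neighbours of UTP9, UTP13, ESF2 and NOC4 downstream were assembly factors of the 60S subunit, RIX1, RSA3, NOG2 and RRP15, and differed by -1.12, -0.75, -0.84 and -0.75.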

How the data were processed

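Each deposited scanner file gives, for 15552 spots, the intensity of the spot and of its local background in both channels, which the authors measured with an Agilent scanner and Imagene and did not normalize. The authors' deposited log2 ratios were made by print-tip loess without background subtraction and corrected for dye bias, and served as an alternative. A deposited table of averaged values and p-values holds the authors' own comparisons and was not used.

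Background was corrected with normexp (offset 50), a loess curve through the gene spots was taken from each array, ratios were turned to sample over reference with the dyes in the sample labels, and the 2 spots of a probe were averaged. A linear model with a mean per group was fitted to all 6388 probes (limma 3.58.1, R 4.3.3, two-sided, Benjamini-Hochberg), with 2 residual and 1.98 prior degrees of freedom, and was tested on simulated data. The simulated arrays had equal spread and independent errors, so the simulation does not cover the unequal spread of the arrays here. The number of arrays limits the precision. The submitters name independent cultures for the arrays of a condition. The study's methods describe dye-swap repeats of biological replicates. If a group's arrays shared a culture, p-values measure technical spread only.

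Members and lists were chosen with earlier results of these data known. Values per array are given for the 3 lowest genes and the highest gene of each complex (all genes where a complex has 4 or fewer), for those with extreme standard errors and for those past a threshold, and for a few others chosen after their values were seen (DIP2, neighbours and context genes). A gene with several probes was represented by the brightest. Symbols came from the platform annotation (5326 probes with a symbol, 1062 without), and all 44 members matched a locus tag in the RefSeq table. Promoter sequences, and a planned count of motifs in them, were not analysed here. Alternatives covered background correction, normalization, scaling, the test, dim probes, the dye as a block and leaving out each array.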

Additional observations from a re-analysis of the deposited data

How the results depend on the processing

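The direction of the members was stable under the alternatives, and the calls were not. The median difference of the members lay between -0.97 (normexp without an offset) and -0.66 (scaling between arrays) under the alternatives that kept all arrays. Leaving out 1 array gave -1.39 to -0.39, for UTP A -1.45 to -0.41, for UTP B -1.31 to -0.23, for the U3 snoRNP -1.49 to -0.18, for the Mpp10 group -1.33 to -0.46, for the other factors -1.28 to -0.41 and for the late factors -1.35 to -0.44, the lower value without low phosphate a and the higher without low phosphate b. At least 43 members were lower under every alternative. The reversals were SAS10 at 0.18 with normexp without an offset and UTP21 at 0.037 without low phosphate b (leaving out 1 array gave -0.82 to 0.037). Members past an adjusted p of 0.05 (limma) numbered 0 to 44 when 1 array was left out, with 44 only without low phosphate a, and 0 under every other alternative. Over all probes 1 passed. The count was 0 with normexp without an offset, median centring, print-tip loess, the authors' steps, the deposited ratios, loess on spike-in spots and the replicate block (limma, with 743, 283, 698, 724, 734, 450 and 983 probes at an unadjusted p under 0.05), it was 3 with scaling between arrays, and 0 to 2030 when 1 array was left out. Members past 1.7-fold with an unadjusted p under 0.05 (limma) numbered 8. They numbered 14 with normexp without an offset, 21 with loess on spike-in spots and 17 with the replicate block. Over all probes both thresholds were met by 94 lower (1.47%) and 102 higher probes, by 171 lower (2.68%) with normexp without an offset, by 165 lower (2.58%) with the replicate block, by 218 lower (3.41%) and 80 higher with loess on spike-in spots, and by 88 lower and 148 higher with median centring. Scaling between arrays left 12 members over 1.7-fold lower in place of 29 and raised those at an unadjusted p under 0.05 to 35, in place of 11, where the share of all probes that were lower at that p was 9.97%, in place of 5.13%. The cause of these changes was not tested. The letter that the arrays share is the dye orientation, and deviations of low phosphate a and standard phosphate a from their group means correlated with r = 0.28 over probes, so the replicate block is given as a setting and not as a pairing of cultures. Leaving out SAS10 was chosen after seeing the data and gave 43 lower, 8 past both thresholds and a median of -0.92 in the Mpp10 group. The mean over the probes of a gene gave no new value, since each member has 1 probe, and the planned motif counts were not run.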
